A study of Mus musculus with 6 samples.

Results

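The expression of 10 nonfibrillar collagen genes was compared between RNA released from flushed shafts of the mouse femur and RNA of the marrow flushed out. They are Col6a1, Col6a2 and Col6a3 of collagen VI, Col8a1 of collagen VIII, Col12a1, Col14a1 and Col16a1 of the fibril-associated group, Col13a1 of the transmembrane group, and Col15a1 and Col18a1 of the multiplexin group. They were taken by symbol as nonfibrillar chains other than basement membrane collagen IV and the cartilage collagens, with every probe set that named a single gene. All 10 were on the array, out of 18193 genes measured, and 19 probe sets named them.

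Collagens are trimers that share a triple helix. Fibrillar collagens such as types I and III build the load-bearing cables of bone and tendon, whereas the nonfibrillar types described here surround cells, coat fibrils, anchor cell membranes or sit in basement membranes. Collagen VI forms beaded microfilaments around cells in muscle, cartilage, bone and vessels. The fibril-associated collagens with interrupted triple helices (FACITs) lie on the surface of fibrils, and the multiplexins are basement membrane collagens that also carry glycosaminoglycan chains.

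The RNA came from 3 endosteal and 3 central samples taken from femurs, and all the mice were C57BL/6 males, 8 weeks of age, that had received saline by the intraperitoneal route. Endosteal RNA is what Trizol, a lysis reagent, released from shafts whose marrow had already been flushed out, and central RNA is that of the flushed marrow cells. Before flushing, muscle and periosteum were scraped and rubbed off and the metaphyses were cut away. The design names 3 mice for the 6 arrays, so both regions share animals, and the arrays of each region carry the letters A, B and C. Nothing says whether a letter stands for a mouse, and p-values measure only the spread between these samples. A signal is the authors' linear intensity of a probe set. A gene is represented by its probe set with the highest mean log2 signal.

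The array medians lay between 120 and 131 on endosteal arrays and between 97.2 and 106 on central arrays, and 15.9% to 20.1% of probe sets had a signal below 16, where signals hold little information on level. The label of the endosteal fraction was checked against markers, and 3 of 4 measured osteoblast genes were called higher in it: Dmp1, Ibsp and Alpl, by 5.22, 3.30 and 2.20 on the log2 scale. Blood cell RNA was present in both fractions. The summed signal of 6 haematopoietic markers was 85244 to 110516 on endosteal arrays and 71247 to 77701 on central arrays. On endosteal arrays Mpo and Elane were the largest terms of that sum. By limma 0 were called higher and 1, the B cell gene Cd79a, was called lower. At an unadjusted limma p under 0.05, 3 were higher (Mpo, Elane and Csf1r) and 2 lower (Cd79a, and Ptprc at -0.47). Endosteal RNA thus held markers of bone cells and of blood cells. It also held skeletal muscle markers, and 8 of these summed to 53236 to 108953 on endosteal arrays. The 4 osteoblast markers summed to 10703 to 13085 there. Markers of further cell types are given below. In such bulk RNA, fewer cells of a type and less RNA per cell cannot be told apart.

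The nonfibrillar collagens were higher in endosteal RNA. Of the 10 genes, 7 passed limma's test at an adjusted p under 0.05, taken over all genes, and are called higher: Col6a1, Col6a2, Col6a3, Col8a1, Col13a1, Col14a1 and Col16a1. None was called lower by limma, and at an unadjusted p under 0.05 the counts were 9 higher and 0 lower, where 17.7% of all genes were higher at that level. Without central array B, 4 were called, against 2.76% of all genes called higher in that fit. Of all genes, 7.74% were called higher and 3.97% lower. The median log2 change of the 10 genes was 2.16, from 0.79 for Col12a1 to 3.28 for Col8a1, where the median of all genes was 0.10. All 3 endosteal arrays lay above all 3 central arrays for all 10 genes, as they did for 22.1% of all genes. Changes are on log2(signal + 16), which understates them where signals are low. After each array was centred on its median, 927 genes were called higher and 1783 lower in place of 1409 and 723, and the median change was 1.90 for the 10 genes and -0.16 for all genes. With the letter as a block, 2 of the 10 were called, Col6a3 and Col8a1 (adjusted p = 0.0478 for each), against 0.467% of all genes. The other 5 that had been called then had adjusted p between 0.0521 and 0.0767.

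**Figure D1:**
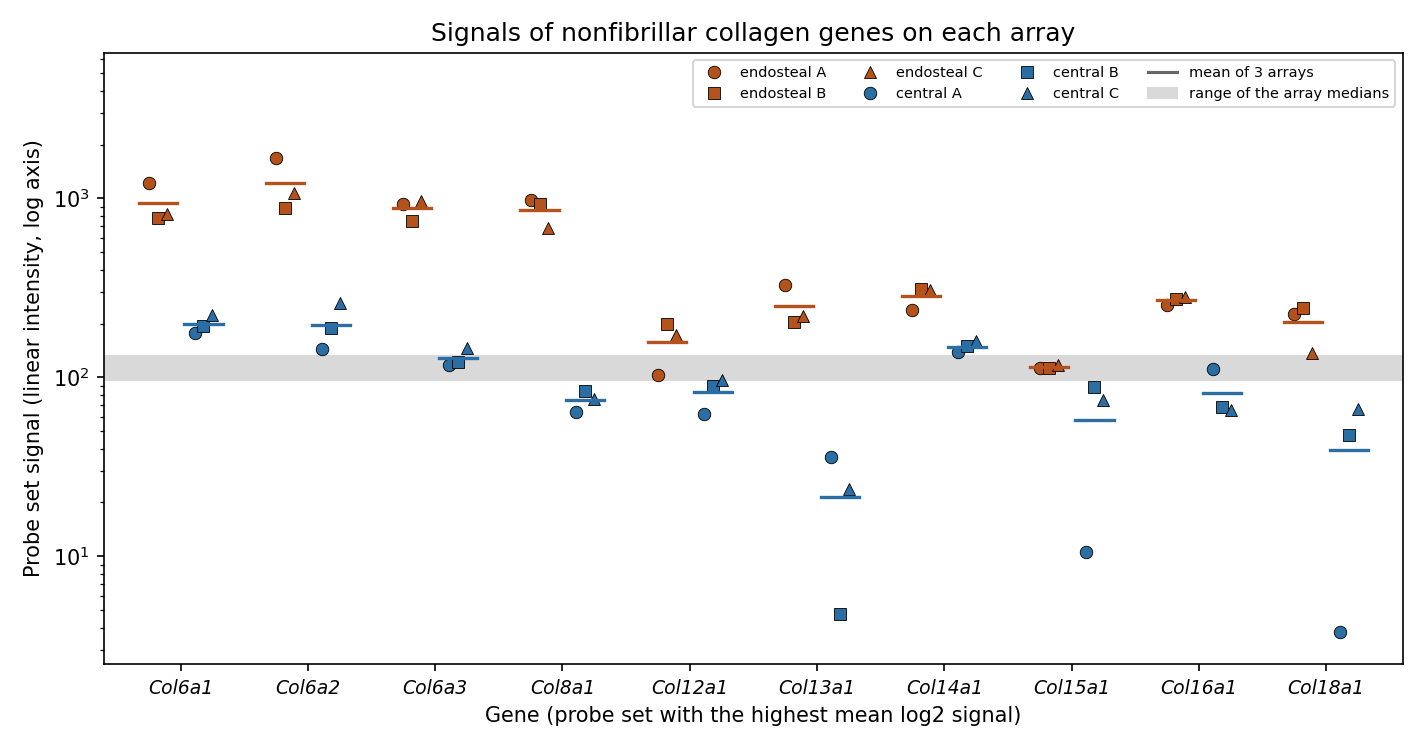
Signal of the probe set that stands for each gene (vertical log axis, linear intensity) on each of the 6 arrays, with endosteal arrays left of central arrays, short lines at the means of 3 arrays and a grey band over the range of the array medians. No endosteal point of a gene lies at or below a central point of that gene, and the central points of Col13a1, Col15a1 and Col18a1 spread widely at low signals.

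The 3 chains of collagen VI rose together, between 4.39-fold and 6.18-fold. In the collagen VI molecule the products of Col6a1, Col6a2 and Col6a3 join as 1 chain each, and the large alpha 3 chain is trimmed after secretion. Loss of any of these chains causes muscle disease in people. Col6a1 had signals of 1218, 781 and 819 in endosteal samples A, B and C, against 178, 193 and 223 in central samples A, B and C. Endosteal array A was the highest, and the lowest endosteal array was more than 3 times the highest central one. The log2 change was 2.13 (SE 0.21, 95% confidence interval 1.61 to 2.66, adjusted p = 0.00683).

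Col6a2 had signals of 1686, 884 and 1067 in endosteal samples A, B and C, against 143, 188 and 260.4 in central samples A, B and C. Endosteal array A again stood above the others, and the central arrays were also unequal. Its change of 2.51 (SE 0.32, interval 1.72 to 3.30, adjusted p = 0.0116) lost its call when central array B was left out (adjusted p = 0.0506). A second Col6a2 probe set, with the suffix that marks probes matching other sequences too, read 694, 679 and 636 on endosteal arrays against 314, 222 and 279 on central arrays. That probe set was also called higher in a fit over all probe sets, with a smaller change of 1.27 (SE 0.18, adjusted p = 0.0243).

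Col6a3 was the steadiest of the 3 chains. Its signals were 931, 745 and 964 in endosteal samples A, B and C, against 117, 122 and 146 in central samples A, B and C. The change of 2.63 (SE 0.16, interval 2.23 to 3.03, adjusted p = 0.00247) was called in every alternative tried, with a range of 2.29 to 2.76. Whether the chains changed by unequal amounts was asked from the log2 ratio of 2 chains on the same array, of which only the difference between regions can be read, since the chains have different probes. The ratio of Col6a3 to Col6a1 was higher in endosteal RNA by 0.49, with means of -0.07 ± 0.31 on endosteal arrays and -0.57 ± 0.03 on central arrays (SD, n = 3 each). The exact two-sided permutation test gave p = 0.1, the smallest that 3 against 3 arrays allow, and an adjusted p of 0.3 over the 3 pairs of chains. The other pairs differed by 0.38 for Col6a2 to Col6a1 and 0.12 for Col6a3 to Col6a2 (exact permutation p = 0.2 and 0.7, adjusted p = 0.3 and 0.7). When genes were the mean of their probe sets, the difference for Col6a2 to Col6a1 turned to -0.25 and that for Col6a3 to Col6a2 became 0.74. No pair passed the test, and the design could not have passed it.

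Upstream sequence was at hand for 8 of the 10 genes, in 10 windows from 250 bases before a gene's start to 50 after it (RefSeq, GRCm38.p6). The windows of the 3 collagen VI chains are shown because these chains form 1 molecule and rose together, and that of Col8a1 because its probe set showed the largest change of the 10. Capitals mark the motifs searched on both strands: TATAAA (the TATA box), CCAAT (the CCAAT box), GGGCGG (the GC box bound by Sp1-type factors) and TGTGGT (the core bound by Runx factors).
Col6a1, chr10:76725995-76726294, minus strand: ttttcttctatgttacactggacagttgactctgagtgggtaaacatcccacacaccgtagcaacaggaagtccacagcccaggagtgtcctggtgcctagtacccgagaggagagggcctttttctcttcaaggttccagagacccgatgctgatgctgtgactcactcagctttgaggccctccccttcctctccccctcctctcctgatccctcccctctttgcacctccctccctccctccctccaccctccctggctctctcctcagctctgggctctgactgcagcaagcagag
Col6a2, chr10:76623355-76623654, minus strand: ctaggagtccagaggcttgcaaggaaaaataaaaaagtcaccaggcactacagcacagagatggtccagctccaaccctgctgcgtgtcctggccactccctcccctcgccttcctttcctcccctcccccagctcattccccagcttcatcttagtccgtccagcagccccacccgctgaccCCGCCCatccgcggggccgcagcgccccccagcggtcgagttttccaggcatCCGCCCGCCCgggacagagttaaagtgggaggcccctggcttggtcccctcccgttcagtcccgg
Col6a3, chr1:90843922-90844221, minus strand: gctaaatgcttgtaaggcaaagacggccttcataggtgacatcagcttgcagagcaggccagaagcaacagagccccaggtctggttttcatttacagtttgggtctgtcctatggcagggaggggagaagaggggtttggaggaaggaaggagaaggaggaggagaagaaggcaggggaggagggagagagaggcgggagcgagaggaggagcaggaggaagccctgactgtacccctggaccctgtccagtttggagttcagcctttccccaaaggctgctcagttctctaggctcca
Col8a1, chr16:57754688-57754987, minus strand: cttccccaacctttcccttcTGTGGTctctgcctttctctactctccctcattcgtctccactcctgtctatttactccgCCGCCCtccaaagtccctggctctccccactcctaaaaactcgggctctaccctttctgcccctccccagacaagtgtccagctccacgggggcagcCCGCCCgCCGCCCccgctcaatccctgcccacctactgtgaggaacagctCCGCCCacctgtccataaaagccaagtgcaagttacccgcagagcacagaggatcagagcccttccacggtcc
The Col6a1 and Col6a3 windows hold none of the 4 motifs, the Col6a2 window holds 3 GC boxes, the last 2 of which overlap, and the Col8a1 window holds 4 GC boxes and 1 TGTGGT. A second Col6a2 window, which overlaps the first, holds 1 GC box. GC boxes stood in 5 of the 10 windows, from 4 genes, and in 35.7% of 32851 windows of all genes. CCAAT stood in 2 (37.4% of all windows), TGTGGT in 2 (16.8%) and TATAAA in 1 (13.6%). The median GC content was 60% for the 10 windows and 52.7% for all windows. These matches describe letters only.

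**Figure D2:**
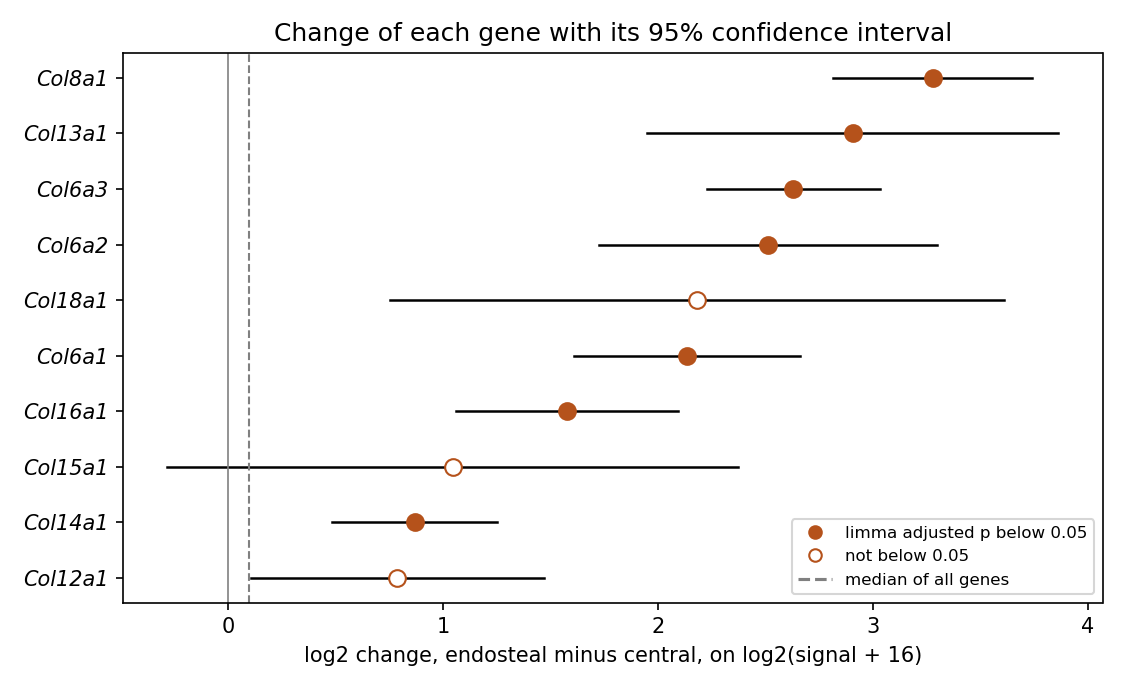
The log2 change of each gene, endosteal minus central, on log2(signal + 16) (horizontal axis), with its 95% confidence interval, filled where the limma adjusted p was below 0.05. The interval of Col15a1 crosses 0, that of Col12a1 starts at 0.11 and the other 8 start at 0.48 or above.

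Col8a1 showed the largest change of the 10 genes at the probe sets that stood for them. Collagen VIII is a short-chain collagen that forms hexagonal networks in vessel walls and in the basement membrane of the corneal endothelium. Col8a1 had signals of 975, 934 and 688 in endosteal samples A, B and C, against 63.7, 84.0 and 75.3 in central samples A, B and C. Central signals were below the array medians throughout, and endosteal signals were several times above them. The log2 change was 3.28 (SE 0.19, interval 2.81 to 3.74, adjusted p = 0.00205), or 9.70-fold. With the mean of its 3 probe sets it was 2.24, below Col13a1 (2.90) and Col6a3 (2.63), and with pseudocount 1 it was 3.52, below Col13a1 (3.83). A second probe set moved likewise, with signals of 360.5, 347 and 454 on endosteal arrays against 13.1, 65.0 and 44.7 on central arrays (log2 change 2.94, SE 0.40, adjusted p = 0.0222). The third read below 16 on 2 endosteal arrays and on 2 central arrays and was not called. Its partner chain Col8a2 was called higher by 1.04 (adjusted p = 0.0350), with means of 61.7 ± 13.4 in endosteal RNA and 21.8 ± 7.0 in central RNA (SD, n = 3 each). At these low signals the Col8a2 call was lost after quantile normalisation (0.72, adjusted p = 0.0651), with the intensity trend (0.110), with the letter as a block (0.0856) and when any 1 array was left out.

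The FACIT genes changed by smaller amounts at the probe sets that stood for them. Collagen XVI is made by fibroblasts and other connective tissue cells. Col16a1 had signals of 253, 273 and 283 in endosteal samples A, B and C, against 112, 68.4 and 65.4 in central samples A, B and C. Central array A was the highest of its region and still lay well below the lowest endosteal signal. Its change of 1.58 (SE 0.21, interval 1.06 to 2.09, adjusted p = 0.0128) lost its call when central array B was left out (adjusted p = 0.0542).

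Collagen XIV binds decorin on fibrils of skin and tendon. Col14a1 had signals of 238, 314 and 306 in endosteal samples A, B and C, against 138, 149 and 159 in central samples A, B and C. The rise of 0.87 (SE 0.15, interval 0.48 to 1.25, adjusted p = 0.0261) was 1.82-fold. It was lost after centring (adjusted p = 0.0579), with the mean of the probe sets (0.0653), without either endosteal B or C (0.0741 and 0.0698) and without any central array (0.0730 to 0.0903). In the fit over all probe sets the same probe set had an adjusted p of 0.0534. A second probe set read 103, 125 and 69.7 against 51.5, 7.58 and 41.2 (endosteal, then central) without passing, and the third was below 16 on all arrays.

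Collagen XII is a FACIT of tendon, ligament and periosteum that osteoblasts also make. Its 4 probe sets disagreed. The one that stands for Col12a1 read 103, 198 and 172 in endosteal samples A, B and C, against 62.6, 89.6 and 96.4 in central samples A, B and C. Endosteal array A lay just above the highest central array, and the change of 0.79 (SE 0.27, interval 0.11 to 1.47, adjusted p = 0.126) did not pass. Another probe set read 219, 247 and 184 on endosteal arrays, against 2.52, 2.02 and 7.57 on central arrays. Its central signals all lay below 16 and its endosteal signals all lay above the array medians. The change of 3.54 (SE 0.19, adjusted p = 0.00360) was the largest of the 19 probe sets. The remaining 2 gave 0.85 and -0.45 at low signals and were not called. As the mean of its 4 probe sets Col12a1 passed (1.18, adjusted p = 0.0321). Which of the 4 reads the gene best was not tested.

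**Figure D3:**
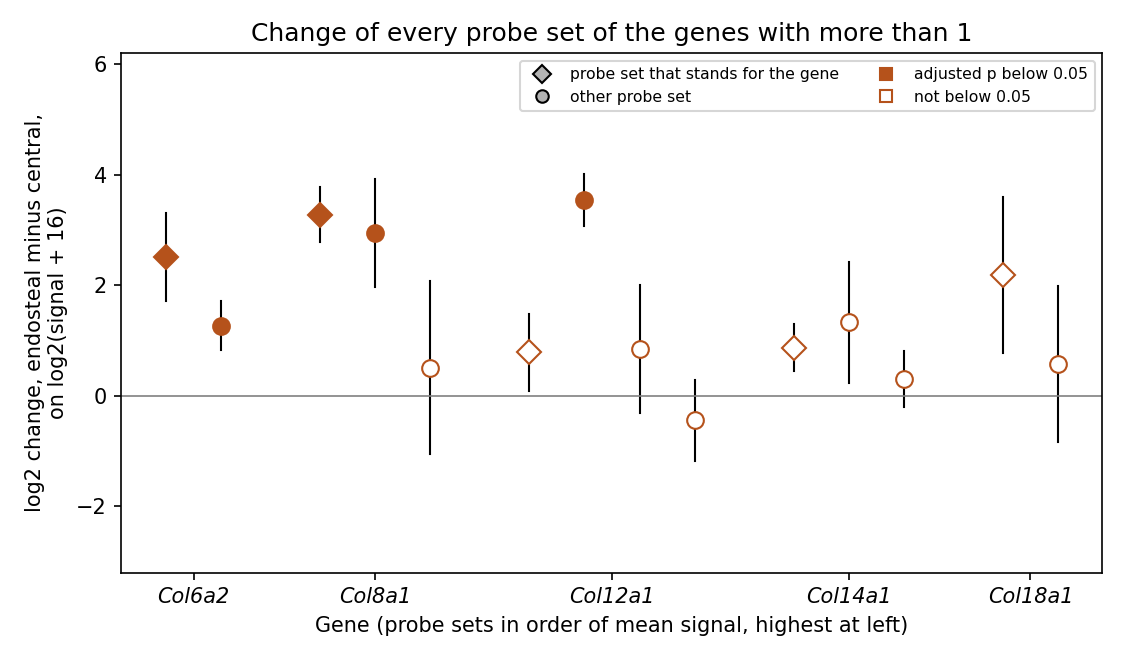
The log2 change of every probe set, endosteal minus central (vertical axis), for the 5 genes with more than 1, with 95% confidence intervals. Diamonds mark the probe set that stands for the gene and filled symbols an adjusted p below 0.05 over all probe sets; the second probe set of Col12a1 lies at 3.54 while its diamond lies at 0.79.

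Over all 19 probe sets, 9 were called higher and 0 lower in the fit across 45037 probe sets, of which 3.21% were called higher. That count was 3 without central array B, 4 without endosteal array C and 5 without any 1 of the other arrays. The shares of all probe sets called in those fits were not computed. These 9 belong to 7 genes: Col6a1, Col6a2 with both probe sets, Col6a3, Col8a1 with 2 of 3, Col12a1 with 1 of 4, Col13a1 and Col16a1. The median change of the 19 was 1.33, against 0.08 for all probe sets. Only 1 of the 19, a Col12a1 probe set with every endosteal signal below 16, had a negative change.

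Collagen XIII is a transmembrane collagen of cell adhesions, known from the neuromuscular junction, whose ectodomain is shed by furin-type proteases. Col13a1 had signals of 331, 203 and 221 in endosteal samples A, B and C, against 36.1, 4.75 and 23.8 in central samples A, B and C. Endosteal array A was again the highest, and 1 central signal was under 16. The log2 change of 2.90 (SE 0.39, interval 1.95 to 3.86, adjusted p = 0.0129) rests on low central signals, and its size ran from 1.88 with pseudocount 64 to 3.83 with pseudocount 1.

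The multiplexin genes did not pass. Collagens XV and XVIII lie in basement membranes of vessels and muscle, and the C-terminal end of collagen XVIII is released as endostatin, an inhibitor of vessel growth. Col15a1 had signals of 113, 113 and 117 in endosteal samples A, B and C, against 10.5, 88.3 and 74.9 in central samples A, B and C. Central array A lay far below the other two, and the change of 1.04 (SE 0.54, interval -0.28 to 2.37, adjusted p = 0.265) was 0.42 without that array.

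Col18a1 had signals of 228, 244 and 137 in endosteal samples A, B and C, against 3.78, 47.4 and 66.9 in central samples A, B and C. Central array A was again the lowest, and without it the change was 1.56 rather than 2.18 (SE 0.58, interval 0.75 to 3.61, adjusted p = 0.0669). Col18a1 passed with an intensity trend (adjusted p = 0.0175) and with pseudocount 64 (0.0209). Its second probe set overlapped between regions, at 16.3, 89.0 and 37.9 on endosteal arrays and 34.1, 38.6 and 4.07 on central arrays. On central array A the summed signal of 6 endothelial markers was also the lowest of the 3, at 1872 against 2810 on B and 3055 on C. Vwf, the largest term of that sum, read 1089 on A, 1954 on B and 2062 on C. Pecam1 was also lowest on A, whereas Cdh5, Kdr and Emcn were lowest on B and Tie1 on C. The part of endothelial RNA in the Col15a1 and Col18a1 values was not tested.

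The study's own measure was the log2 of mean endosteal over mean central signal, which came to 2.25, 2.62 and 2.78 for Col6a1, Col6a2 and Col6a3 and 3.54 for Col8a1. For Col13a1, whose central signals were low, it was 3.55, the largest of the 10, and no pseudocount is added in this measure. For the FACITs it was 0.93 (Col12a1), 0.94 (Col14a1) and 1.72 (Col16a1), and for the multiplexins 0.98 (Col15a1) and 2.37 (Col18a1). These ratios carry no test.

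Set beside other collagens, the 10 genes fell between the fibrillar chains and the remaining nonfibrillar ones, by counts and medians that were not tested against each other. Of 11 fibrillar chains, 9 were called higher and 0 lower, with a median of 3.96. The leading ones were Col1a1 at 6.34, Col1a2 at 6.10, Col5a2 at 5.90 and Col11a1 at 4.90, while Col27a1 (0.52) and Col5a3 (-0.62) were not called. Col5a3 was called lower after centring (-0.88, adjusted p = 0.0233), with pseudocount 64 (0.0423) and among genes above the median level (0.00973). With the mean of all probe sets Col5a3 gave -0.002. Of 15 other nonfibrillar genes measured, 4 were called higher and 0 lower, with a median of 1.04. These were Col9a1 of cartilage collagen IX (2.09, adjusted p = 0.0479), Col25a1, a transmembrane collagen like Col13a1 (1.83), Col6a4, a further collagen VI chain (1.19), and Col8a2. With the mean of all probe sets, Col25a1 (0.64, adjusted p = 0.0958) and Col6a4 (0.53, 0.303) lost their calls and Col9a1 gave 1.19, and Col6a4 gave -0.12 with the probe set of the highest linear mean. The Col9a1 call was also lost after quantile normalisation (adjusted p = 0.0660), after centring (0.0524) and with pseudocount 1 (0.0582). Col22a1, a FACIT of muscle and tendon junctions, had 186 ± 38.0 in endosteal RNA and 74.5 ± 27.0 in central RNA (SD, n = 3 each) and missed the threshold at that probe set (1.19, adjusted p = 0.0537). Col22a1 passed with the probe set of the highest linear mean (4.13, adjusted p = 0.00333), with the mean of all 3 (2.57, 0.00529), with pseudocount 64 (0.0296) and with the intensity trend (0.0437). Col7a1, of the anchoring fibrils of skin, stood at 139 ± 22.4 and 128 ± 1.48 (endosteal, then central). Of the 6 collagen IV chains, Col4a1 and Col4a2, the common pair of vascular basement membranes, were called higher at 2.33 and 1.72, and the other 4 were not called, among them Col4a5 (0.44) and Col4a6 (-0.60). Their median was 0.47.

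**Figure D4:**
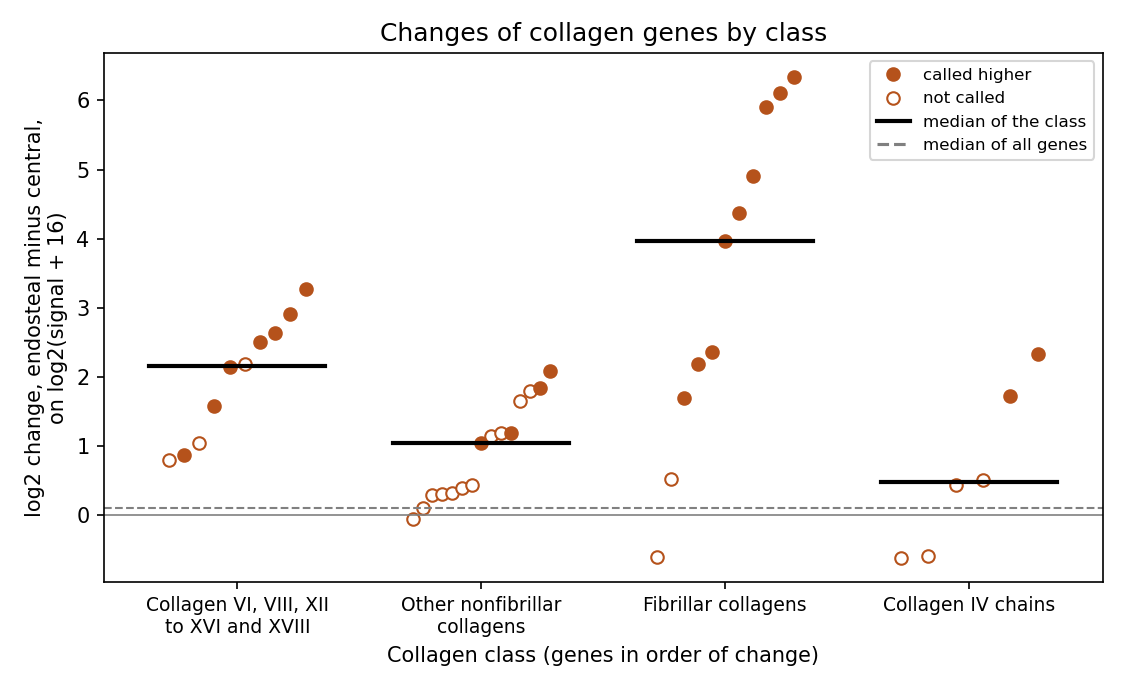
The log2 change of each collagen gene, endosteal minus central (vertical axis), by class, with genes in order of change, filled where called higher and with a bar at the median of the class. The medians are 2.16 for the 10 nonfibrillar genes described here, 1.04 for the other nonfibrillar genes, 3.96 for the fibrillar chains and 0.47 for collagen IV; the dashed line is the median of all genes.

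The receptors, partners and proteases of these collagens were taken as lists. Of 11 measured collagen receptors, 3 were called higher and 0 lower, with a median of 0.79. Antxr1, the anthrax toxin receptor that also binds collagen VI, rose by 2.30 (849 ± 158 in endosteal RNA, 163 ± 48.7 in central RNA; SD, n = 3 each). Ddr2, a collagen-activated kinase of mesenchymal cells, rose by 2.25 and the integrin subunit Itgb1 by 0.85. With the mean of all probe sets, Antxr1 (0.76, adjusted p = 0.238) and Itgb1 (0.63, 0.156) were not called, and Itgb1 was called in only 1 of the 6 fits that left out an array. The related receptor Antxr2, at 1513 ± 90.2 in endosteal RNA and 1736 ± 237 in central RNA, and the leukocyte receptor Lair1, at 701 ± 49.0 and 729 ± 25.5 in the same order, were not called. Cspg4, the NG2 proteoglycan that binds collagen VI on pericytes, had 75.4 ± 51.7 and 51.3 ± 29.9, a difference of 0.33 that did not pass (adjusted p = 0.788).

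Of 14 matrix partners, 9 were called higher and 0 lower, with a median of 2.31. The small proteoglycan Lum rose by 5.17, the matricellular protein Postn by 4.96, and Dcn and Bgn, proteoglycans that bind collagen VI, by 4.80 and 3.23. Dcn gave 2.52 with the mean of all probe sets. The perlecan gene Hspg2 (0.49) and Matn2 (0.90) were not called. Of 10 proteases, 6 were called higher and 1 lower, with a median of 1.72. Ctsk and Mmp13, which cut bone collagen, rose by 5.57 and 5.38, the gelatinase Mmp2 by 2.90 and the procollagen protease Bmp1 by 2.38. Mmp9, the gelatinase of neutrophils and osteoclasts, fell by 0.93 (adjusted p = 0.0241). Bmp1 and Mmp9 were each called in only 1 of the 6 fits that left out an array. Furin, at 488 ± 160 in endosteal RNA and 904 ± 59.9 in central RNA, and the neutrophil elastase gene Elane, at 29150.1 ± 7895 and 15866 ± 1555 in the same order, were not called (-0.92 and 0.85).

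Markers of several cell types besides osteoblasts were higher on the same endosteal arrays. All 8 skeletal muscle markers were called higher, with a summed signal of 53236 to 108953 on endosteal arrays and 532 to 898 on central arrays, where Mb averaged below 16. The leading ones were Tnnc2 at 8.17, Mb at 7.21, Ckm at 7.07 and Myh4 at 6.73. Of 6 endothelial markers 3 were called, with sums of 5663 to 6651 on endosteal arrays and 1872 to 3055 on central arrays: Emcn (2.77), Kdr (1.80) and Vwf (1.36), while Pecam1 (0.55) and Cdh5 (0.61) were not. Kdr and Vwf were each called in only 1 of the 6 fits that left out an array. Of 6 pericyte and smooth muscle markers 3 were called, with sums of 5624 to 9507 and 1840 to 2561 (endosteal, then central), where Tagln and Myh11 averaged below 16 in central RNA. Rgs5 rose by 3.93, Tagln by 2.46 and Pdgfrb by 2.41, but not Acta2 (-0.19). Of 7 tendon and fibroblast markers 2 were called, Thbs4 (3.35), which averaged below 16 in central RNA, and Pdgfra (3.11), with sums of 1535 to 2253 and 1107 to 1818, which overlap, and with Pi16 (-0.84) and Tnmd (2.03) not called. Of 6 cartilage markers 2 were called, Col2a1 (4.38) and Matn3 (1.78), with sums of 1379 to 2844 and 170 to 208, and Acan (1.92) and Cnmd (1.09) were not. The part of each of these cell types in the collagen values was not tested.

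Endosteal array A carried the most muscle signal, 108953 against 58911 on B and 53236 on C, and the highest endosteal sum of every other marker list except the osteoblast one, which was highest on B. It was also the highest endosteal array for Col6a1, Col6a2, Col8a1 and Col13a1 and the lowest for Col12a1, Col14a1 and Col16a1. The median change of the 10 genes relative to the central mean was 2.45 on endosteal array A, 2.01 on B and 1.84 on C. Without endosteal array A, Col6a1, Col6a2 and Col13a1 changed by 1.94, 2.25 and 2.70 in place of 2.13, 2.51 and 2.90. In that fit 7 of the 10 genes were called, against 4.07% of all genes called higher, with Col12a1, Col15a1 and Col18a1 not called as before.

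**Figure D5:**
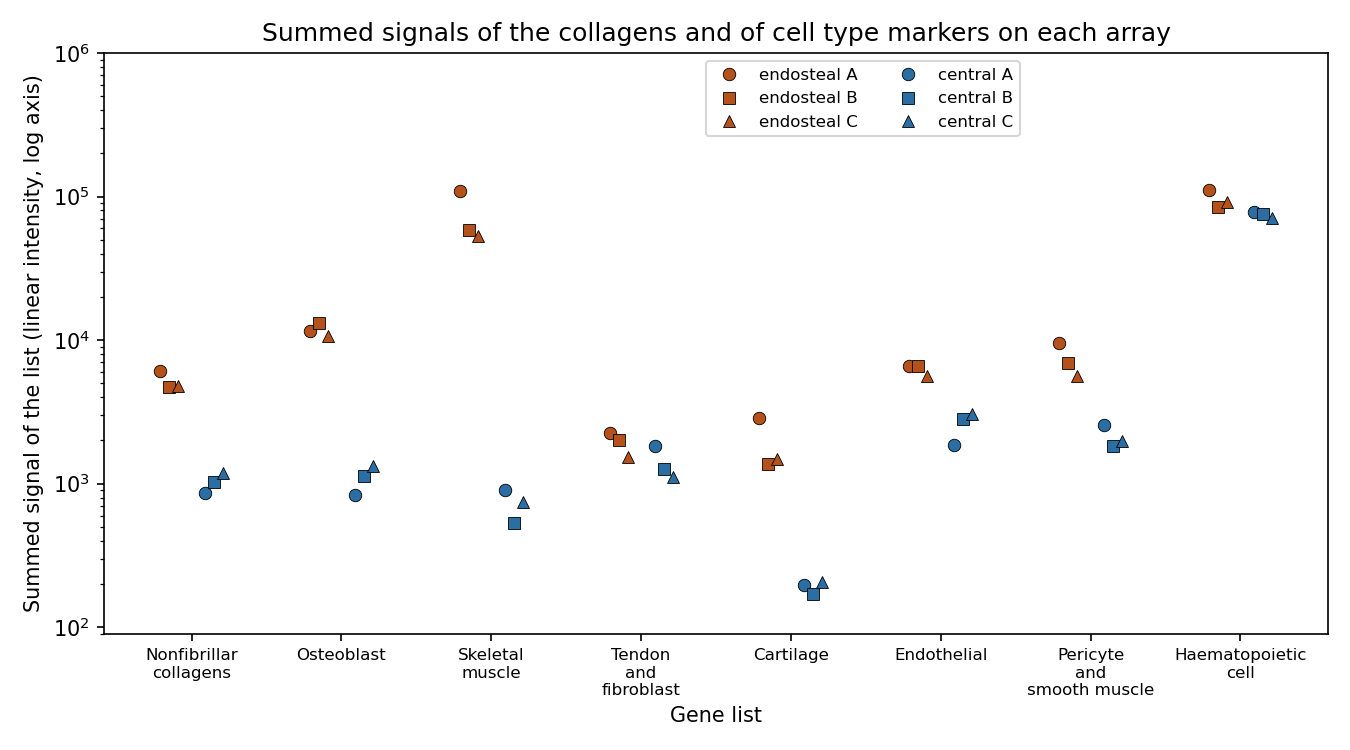
Summed signal of the 10 nonfibrillar collagens and of each list of cell type markers (vertical log axis, linear intensity) on each array, with endosteal arrays left of central arrays. The muscle sum is 53236 to 108953 on endosteal arrays and 532 to 898 on central arrays, while the ranges of the tendon and fibroblast sums overlap.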

How the data were processed

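Per the labels, biotin-labelled cRNA from 2 micrograms of total RNA was hybridised to Affymetrix mouse arrays, 1 per sample. The values are the authors' deposited linear intensity per probe set, 45101 on each array. The sources used here do not give the summarising software or a background step. Every array had a trimmed mean of 500.00 (2% cut at each end), so each was scaled by 1 factor. Probe sets were named from the platform annotation, checked by gene identifier against RefSeq (GRCm38.p6): 34945 named 1 gene, 932 several, 9160 are unnamed here and 64 are controls. No build is named for the arrays, so coordinates are given only for RefSeq windows. Array number limits the precision.

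Signals were taken as log2(signal + 16) and compared with limma 3.58.1 in R 4.3.3 (lmFit, eBayes, region as the only term, two-sided, Benjamini-Hochberg over all 18193 genes, or over all 45037 probe sets where said), with intervals at 95%. The code of the fit was run on simulated independent values, which checked only that added changes came back in size and sign. That run held no shared mice or array effects and says nothing on false calls in these data. Chain ratios were tested by exact permutation (scipy 1.17.1). The genes and lists were chosen with earlier results of these data known. All 10 genes are named, and of each other list up to 4 called genes with the largest change in the main direction, up to 2 in the other and up to 2 uncalled genes with the highest mean signal. Cspg4 and any further gene were named after seeing their values. Alternatives were pseudocounts 1 and 64, a median level filter, quantile normalisation, median centring, an intensity trend, the letter as a block, the mean of all probe sets and each array left out; the highest linear mean probe set was added after the data were seen. For the check of pairing, endosteal and central arrays with the same letter were compared in their deviations from the region mean: r was 0.05 (A), 0.04 (B) and 0.01 (C) across all genes. Above the median level it was 0.26 (A), 0.13 (B) and 0.10 (C). For arrays with different letters, r ran from -0.04 to 0.002 across all genes and from -0.19 to 0.08 above the median level. Genes are not independent replicates, and the pairing comes only from these letters.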

Additional observations from a re-analysis of the deposited data

How the results depend on the processing

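All 10 genes kept a positive change in every alternative that gave them a value. With the letter as a replicate block, 2 genes, 0 probe sets and 12 of 67 related genes were called, in place of 7, 9 and 33. In that fit 0 of all 45037 probe sets were called. At an unadjusted p under 0.05 in that limma fit, 12 of the 19 probe sets were higher. The share of all probe sets at that level was not computed, so the 12 cannot be set against it. Leaving out 1 array gave 4 to 7 genes, 3 to 5 probe sets and 22 to 30 related genes, and a median change of the 10 genes between 1.92 and 2.40. In those fits 2.76% to 4.89% of all genes were called higher. The lowest gene and probe set counts, 4 and 3, came without central array B, where Col6a2, Col14a1 and Col16a1 were not called. Without endosteal array C the probe sets called were 4, and without any 1 of the remaining 4 arrays they were 5. The median change of 2.16 became 1.64 with pseudocount 64, 1.73 with the mean of all probe sets and 2.57 among genes above the median level. That filter kept 4 genes (Col6a1, Col6a2, Col6a3 and Col8a1), all called, as were 17.5% of the 9096 genes left, and they pass it partly through their endosteal signals. Col6a4 gave -0.12 in place of 1.19 with the highest linear mean probe set, and the difference in the ratio of Col6a2 to Col6a1 was -0.25 in place of 0.38 with the mean of all probe sets, since Col6a4 and Col6a2 each have a second probe set that reads less change. Over all genes, the 1409 called higher became 85 with the block, 502 to 890 without 1 array, 927 after centring and 2184 with an intensity trend, and the 723 lower became 0, 89 to 297, 1783 and 1690. With pseudocount 64 there were 1832 higher and 1106 lower, and with the level filter 1591 higher and 1722 lower. With the mean of all probe sets the cartilage gene Matn3 lost its call (0.68, adjusted p = 0.190), and Mb (3.56), Ckm (4.65), Myh4 (4.10) and Pdgfra (1.90) gave smaller changes. With the intensity trend, Furin, Elane, Mpo, Pecam1, Pi16, Tnmd, Acan, Sp7 and Col22a1 passed in the direction they had. The haematopoietic markers Mpo (adjusted p = 0.00798) and Elane (0.00481) were thus called higher in that limma fit. Col6a4 (0.0593) and Col8a2 (0.110) lost their calls there. Low central signals of Col13a1 (mean 21.5), and those of Col15a1 and Col18a1 on central array A (10.5 and 3.78), leave the size of their changes poorly known. Without central array A the change was 0.42 for Col15a1 and 1.56 for Col18a1.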

Other observations

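Of the 10 genes, 4 lie on mouse chromosome 10. In the RefSeq gene order of GRCm38.p6, Col6a1 and Col6a2 are separated by 2 annotated genes, of which 0 are protein coding and 0 were measured on the array. Col18a1 follows beyond Col6a1 with 6 annotated genes between them, 2 of them protein coding. Col13a1, the remaining one on that chromosome, lies 251 annotated genes from Col6a1. The changes of this group on chromosome 10 were 2.13, 2.51, 2.18 and 2.90 for Col6a1, Col6a2, Col18a1 and Col13a1, of which Col18a1 did not pass the test.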
